A study of Mus musculus with 12 samples.

Results

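The genes described here are 10 genes of glucose uptake and glycolysis, namely Slc2a1, Hk2, Pfkl, Aldoa, Tpi1, Gapdh, Pgk1, Eno1, Pkm and Ldha. They were taken by symbol from the 56941 rows of a count table. RNAseq had been run on 12 libraries of sorted peritoneal cavity (PerC) B cells, with 3 libraries in each of 4 groups, namely B2 of control and of KI mice and MemB of control and of KI mice. B2 were naive-type cells sorted as IgD+IgM+, and MemB were memory B cells sorted as IgD-IgM-. KI mice were Cd21-Cre R26-LSL-Gpr34Q340X-IRES-GFP, so that Cre removed a stop cassette in the Rosa26 locus and a truncated, gain-of-function GPR34 was made together with GFP. The labels call the other mice Control and give no further genotype. Cd21-Cre acts in mature B cells and also in follicular dendritic cells, so the receptor could also be made in stroma. The paper found similar PerC accumulation of plasma cells and MemB in wild-type mice given KI bone marrow. It took those phenotypes to be intrinsic to B cells. The comparisons ask whether RNA for glucose use is higher in KI than in control MemB, and higher in MemB than in B2.

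Glycolysis turns glucose into pyruvate in the cytosol and yields ATP, and its intermediates feed the synthesis of nucleotides, lipids and amino acids. Lymphocytes that are activated and begin to divide usually take up more glucose and pass part of the pyruvate on to lactate, whereas resting naive and memory cells rely more on oxidation in mitochondria. Slc2a1 encodes the glucose transporter GLUT1, Hk2 and Pfkl encode enzymes of the ATP-consuming first phase, and the other genes encode the enzymes that split the sugar, extract ATP and NADH, and make lactate. Transcription of many of these genes is known to be driven by HIF-1 and MYC. RNA levels are the only measurement here, and neither glucose uptake nor lactate output was analysed.

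Of the 10 genes, 9 had counts and passed the filter on low counts. The row named Aldoa, for the aldolase that cleaves fructose bisphosphate, was at 0 in every library, which allows up to 3 counts per library. A repeated row, Aldoa.1, held from 2069 to 7640 counts. The table gives no gene identifiers, so the locus behind Aldoa.1 is not known from it, and its values are given apart from those of the 9 genes.

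The 200 bases before the RefSeq start site are shown for 4 of the genes on which the results turn: Pgk1, which was higher in KI MemB before adjustment, Pkm and Eno1, which separated MemB from B2, and Ldha, which did neither. Capitals mark ACGTG on either strand, the core letters of the hypoxia response element, including its occurrence within the MYC-type E-box CACGTG.
Pgk1, GRCm39 chrX:105230506-105230705, plus strand: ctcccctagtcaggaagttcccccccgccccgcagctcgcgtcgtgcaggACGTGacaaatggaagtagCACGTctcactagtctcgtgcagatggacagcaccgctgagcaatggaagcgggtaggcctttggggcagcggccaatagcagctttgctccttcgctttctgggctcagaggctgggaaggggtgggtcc
Ldha, GRCm39 chr7:46495028-46495227, plus strand: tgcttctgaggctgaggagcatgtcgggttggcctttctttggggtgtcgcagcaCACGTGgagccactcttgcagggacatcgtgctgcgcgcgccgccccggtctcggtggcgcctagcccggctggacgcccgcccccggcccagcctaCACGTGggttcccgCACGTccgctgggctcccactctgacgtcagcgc
Pkm, GRCm39 chr9:59564310-59564509, plus strand: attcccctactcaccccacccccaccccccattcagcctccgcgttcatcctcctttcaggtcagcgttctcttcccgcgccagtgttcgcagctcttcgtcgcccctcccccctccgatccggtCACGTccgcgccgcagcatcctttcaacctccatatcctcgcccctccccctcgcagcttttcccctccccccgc
Eno1, GRCm39 chr4:150320965-150321164, plus strand: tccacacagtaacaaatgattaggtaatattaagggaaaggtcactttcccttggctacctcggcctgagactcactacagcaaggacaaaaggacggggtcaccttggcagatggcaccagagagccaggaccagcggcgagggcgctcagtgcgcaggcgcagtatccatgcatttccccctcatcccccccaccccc
Sequences are those of RefSeq for GRCm38.p6, placed on GRCm39 by exact match. The Pgk1 stretch held the motif 150 and 131 bases before the start site. In Ldha it stood 145, 48 and 34 bases before it, and the first 2 of these sites were CACGTG, whereas the window of its other start site held none. The second of the 2 Pkm start sites had the motif 75 bases upstream, and the other Pkm window held none. None of the 3 Eno1 windows held it. Over windows from 250 bases before to 50 bases after a start site, 7 of the 10 genes (70%) held ACGTG in at least 1 window, against 21.8% of all 27025 genes with such a window. Counted by window, 8 of the 16 windows of these genes (50%) held it, against 19.6% of all 32851 windows. CACGTG was found in Ldha alone of the 10, that is in 10% against 8.09% of all genes. The matches describe letters in these windows, and binding was not measured.

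Libraries held 29895068 to 39732124 counts, of which ribosomal RNA took 29.3% to 38.3%. Gpr34 was at 3.42 to 30.8 CPM in control libraries and at 100 to 168 CPM in KI libraries (counts scaled to library size with TMM normalization, used throughout), and every KI library exceeded the controls of its cell type. Ighd, which marks naive B cells, was at 1300 to 1690 CPM in B2, 209 to 251 CPM in control MemB and 66.4 to 101 CPM in KI MemB. Ighm RNA was still at 2010 to 2690 CPM in control MemB, against 297 to 566 CPM in KI MemB. The libraries numbered 3 had Xist at 2420 to 3240 CPM and the others at 29.3 to 66.6 CPM, so they came from mice of the other sex in all 4 groups. Labels call the replicates biological, and whether B2 and MemB with the same number came from 1 mouse is not stated.

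**Figure D1:**
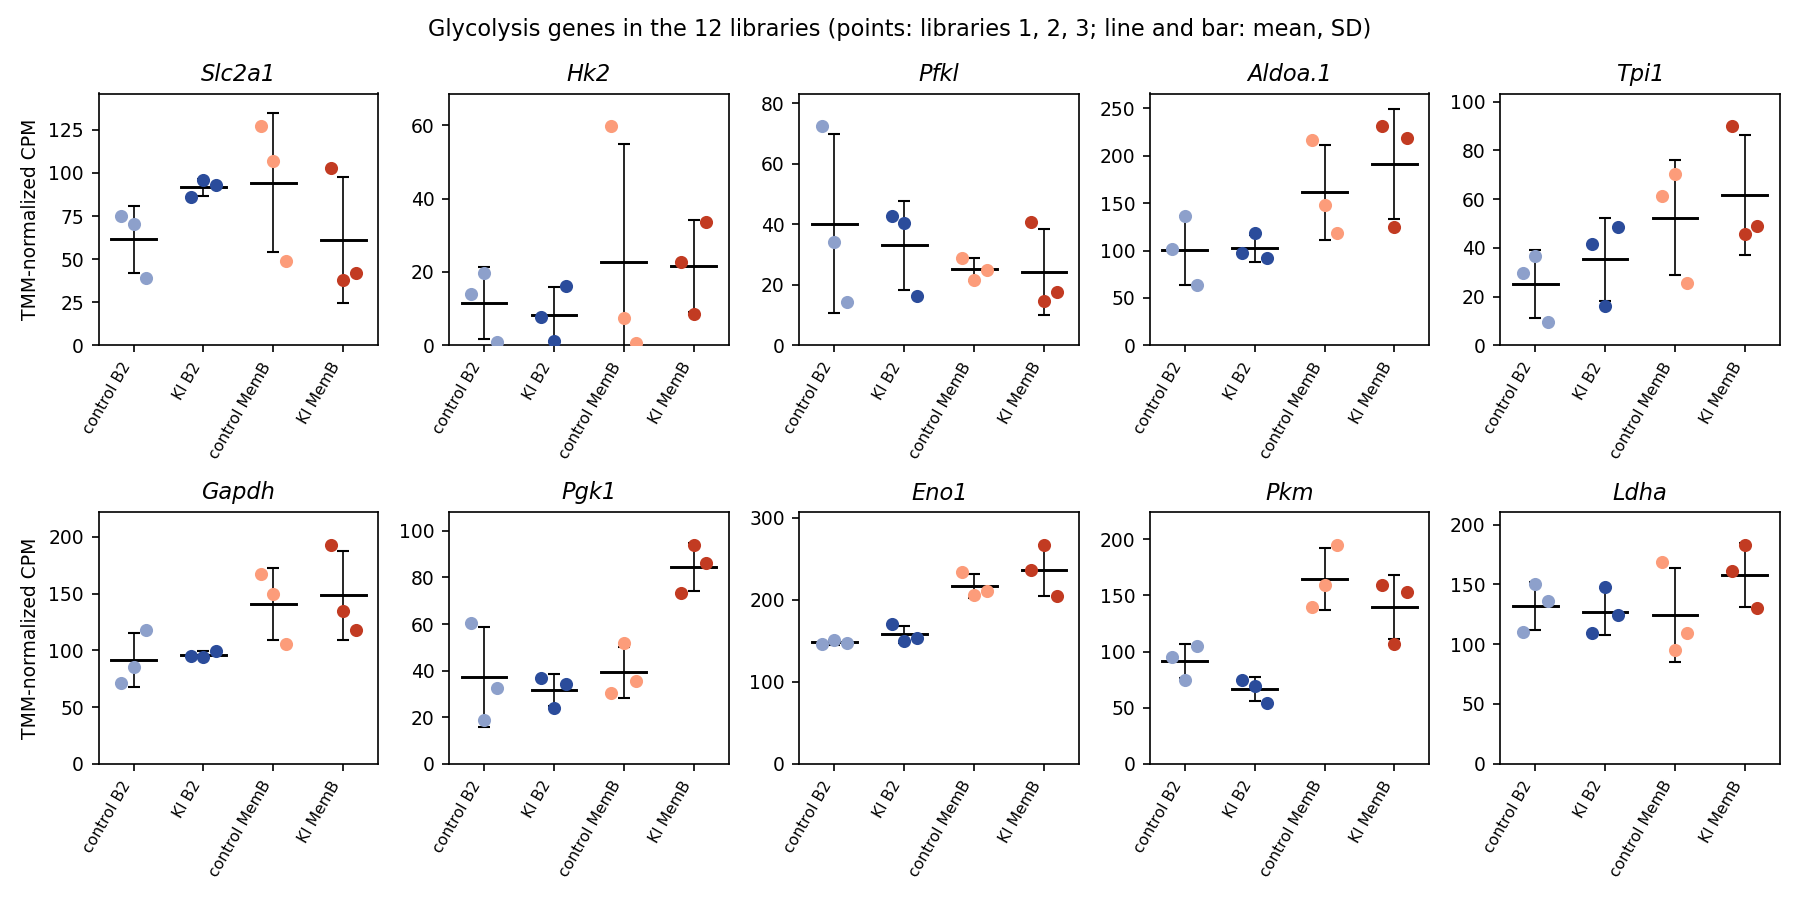
TMM-normalized CPM (y axis, from 0) of 9 glycolysis genes and of the row Aldoa.1 in each library, by group (x axis). Points are libraries 1, 2 and 3 from left to right, lines are group means and bars are SDs (n = 3), with bars of Hk2 running below the axis. Pkm and Eno1 lie higher in all MemB than in all B2 libraries, Pgk1 is highest in KI MemB, and Hk2 spreads widely within every group.

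Slc2a1, the GLUT1 transporter, was at 75, 70.2 and 39.1 CPM in control B2, at 85.9, 95.7 and 93 in KI B2, at 127, 107 and 49.1 in control MemB and at 103, 38.1 and 42 in KI MemB. KI B2 lay above control B2 in every library, whereas in MemB the genotypes overlapped and control MemB replicate 3 and KI MemB replicates 2 and 3 were low. Hk2, the hexokinase that traps glucose in the cell, was at 14, 19.8 and 0.828 CPM in control B2, at 7.61, 1.2 and 16.2 in KI B2, at 59.7, 7.39 and 0.719 in control MemB and at 22.7, 8.64 and 33.6 in KI MemB. No 2 groups were separated for Hk2, and the lowest library of control MemB rested on 24 counts. Pfkl, the liver-type phosphofructokinase, was at 72.4, 34.1 and 14.3 CPM in control B2, at 42.6, 40.3 and 16.2 in KI B2, at 29, 21.5 and 24.9 in control MemB and at 40.7, 14.6 and 17.5 in KI MemB. All 4 groups of Pfkl overlapped.

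The enzymes that act on triose phosphates came next. Tpi1, triosephosphate isomerase, was at 29.7, 36.5 and 9.38 CPM in control B2, at 41.6, 16.1 and 48.4 in KI B2, at 61.5, 70.2 and 25.5 in control MemB and at 89.9, 45.9 and 48.9 in KI MemB. Its groups overlapped, except that every KI MemB library exceeded every control B2 library. Gapdh, which reduces NAD+, was at 71, 85.7 and 118 CPM in control B2, at 95.2, 93.9 and 99.6 in KI B2, at 167, 150 and 106 in control MemB and at 193, 135 and 118 in KI MemB. In KI mice, every MemB library was above every B2 library for Gapdh, and in control mice MemB replicate 3 fell below B2 replicate 3. Pgk1, the kinase that makes the first ATP of the payoff phase, was at 60.5, 18.7 and 32.6 CPM in control B2, at 37, 24 and 34.4 in KI B2, at 30.6, 51.7 and 35.4 in control MemB and at 73.5, 94 and 86.2 in KI MemB. KI MemB stood above all other libraries for Pgk1, and the other 3 groups overlapped.

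Eno1, the enolase, was at 146, 151 and 147 CPM in control B2, at 170, 150 and 154 in KI B2, at 234, 206 and 211 in control MemB and at 236, 267 and 205 in KI MemB. All 6 MemB libraries were above all 6 B2 libraries. Pkm, the pyruvate kinase, was at 94.8, 74.7 and 105 CPM in control B2, at 74.9, 69.7 and 54.6 in KI B2, at 140, 159 and 195 in control MemB and at 159, 107 and 153 in KI MemB, with the same separation of the cell types. Ldha, which turns pyruvate into lactate, was at 110, 150 and 136 CPM in control B2, at 109, 148 and 124 in KI B2, at 169, 95.1 and 109 in control MemB and at 161, 183 and 130 in KI MemB. No pair of groups that the design compares was separated for Ldha. The row Aldoa.1 was at 102, 136 and 63.4 CPM in control B2, at 97.2, 118 and 91.6 in KI B2, at 217, 148 and 119 in control MemB and at 231, 125 and 219 in KI MemB, and its cell types were separated in KI mice but not in controls.

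Levels per kilobase of merged exons allowed the genes to be set beside each other. In control B2, Ldha was at 27.9 ± 4.23 CPM per kb (SD, n = 3), Pgk1 at 16.6 ± 9.47, Slc2a1 at 13.1 ± 4.16, Eno1 at 12.9 ± 0.265 and Gapdh at 12.8 ± 3.36. Tpi1 was at 9.09 ± 5.09, Pkm at 6.81 ± 1.14, Pfkl at 3.13 ± 2.29 and Hk2 at 1.39 ± 1.17 CPM per kb. Pkm and Pfkl were the neighbours in this order whose means ± SD did not overlap. In KI MemB, Pgk1 came first at 37.7 ± 4.6 CPM per kb, followed by Ldha at 33.4 ± 5.60, and these 2 overlapped. The order depended on the length used. Per kilobase of the canonical transcript, Gapdh was at 104 ± 27.7, Eno1 at 103 ± 13.6, Ldha at 99.7 ± 16.7 and Pgk1 at 46.3 ± 5.66 CPM per kb in KI MemB.

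The genes varied unequally between replicates. The within-group SD of log2 CPM was 1.83 for Hk2, above that of 99.6% of tested genes, and 0.12 for Eno1, above that of 0.224%. The other 7 lay between 0.26 (Pkm) and 0.80 (Tpi1), beside a median of 0.78 over all tested genes. Across the 12 libraries, Pearson's r of log2(CPM + 1) between 2 of the 9 genes had a median of 0.29 over 36 pairs, from -0.36 (Pfkl with Gapdh) to 0.78 (Gapdh with Eno1). The points share the cell types and the depth of a library, and for deviations from the group means the median was 0.12. The genes most like the mean profile of the 9, by Pearson's r over the same 12 libraries, were Gas7 (r = 0.908), Crip1 (0.891), Ffar2 (0.889), Apobr (0.888) and Cln6 (0.887). They are the top of a ranking made on these same libraries, and their r also holds the difference between the cell types. Gas7 was at 265 and 203 CPM in the control and KI MemB libraries numbered 1, and at 33.3 to 60.7 CPM in the other MemB libraries.

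In MemB, KI and control did not differ in the 9 glycolysis genes beyond the threshold. A gene was called when edgeR's quasi-likelihood test gave an adjusted p below 0.05 (Benjamini-Hochberg over 15148 genes) with a log2 fold change beyond 1. By this rule 0 of 9 were called, beside 0.284% of all tested genes. DESeq2 called 0 as well, beside 3.49% of all genes to which it gave an adjusted p. At an unadjusted p below 0.05 there was 1 of 9, Pgk1, beside 11.1% of all genes. Pgk1 averaged 84.6 ± 10.3 CPM in KI MemB and 39.2 ± 11 in control MemB (SD, n = 3), a log2 fold change of 1.11 (SE 0.46, 95% interval 0.17 to 2.05, edgeR adjusted p = 0.366). Its libraries did not overlap, as was so, with KI higher, for 6.01% of all genes. Leaving out each library in turn gave log2 fold changes of 0.96 to 1.36.

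For the other genes the intervals state what these libraries could show. The 95% interval of the log2 fold change in KI MemB was -0.35 to 0.59 for Eno1, -0.54 to 0.68 for Gapdh, -0.24 to 0.93 for Ldha, -0.83 to 0.37 for Pkm and -1.47 to 0.20 for Slc2a1. A doubling, which is 1 on this scale, lay outside all of these. It lay inside the intervals of Hk2 (-2.42 to 2.29), Pfkl (-1.27 to 1.17) and Tpi1 (-0.85 to 1.32). Of the 9 genes, 5 were higher in KI MemB, beside 48.4% of all genes, and 4 lower, with a median of 0.07 beside -0.03 over all genes. Slc2a1 averaged 61.0 ± 36.3 CPM in KI MemB and 94.4 ± 40.4 in control MemB (log2 fold change -0.63, SE 0.41, edgeR adjusted p = 0.602), and without KI MemB replicate 1 the log2 fold change was -1.24. The value for Aldoa.1 was 0.25 (interval -0.38 to 0.88). The log2 fold change of Hk2, -0.06, ran from -0.63 (without control MemB replicate 3) to 2.42 (without control MemB replicate 1) with 1 library left out, and was positive in 2 of these fits, the other being that without KI MemB replicate 2.

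**Figure D2:**
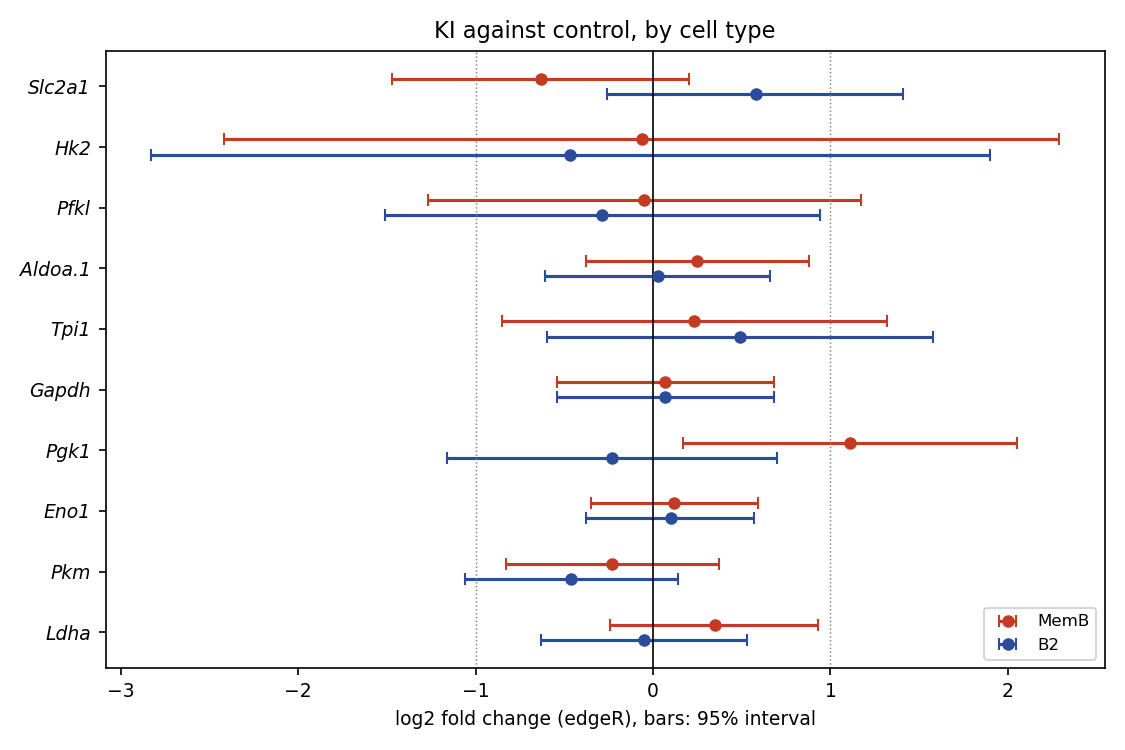
Log2 fold change of KI against control (x axis) for each gene (y axis), in MemB and in B2, from edgeR with 95% intervals as bars. Dotted lines mark a doubling and a halving. The interval of Pgk1 in MemB, 0.17 to 2.05, is the only one that leaves out 0, and that of Hk2 is the widest.

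In B2, 0 of the 9 genes were called by edgeR, beside 0.0066% of all genes. DESeq2 called 0 of the 9, beside 42 of the 15148 genes tested. With both tools 0 of 9 had an unadjusted p below 0.05, beside 5.74% of all genes in edgeR. Slc2a1 averaged 91.6 ± 5.09 CPM in KI B2 and 61.4 ± 19.5 in control B2, with a log2 fold change of 0.58 (SE 0.41, edgeR adjusted p = 0.932), and its libraries were separate, as were those of 5.21% of all genes with KI higher. Without control B2 replicate 3 the log2 fold change of Slc2a1 was 0.34. Pkm averaged 66.4 ± 10.6 and 91.4 ± 15.4 CPM, with a log2 fold change of -0.46 (SE 0.30, edgeR adjusted p = 0.905). The log2 fold change was -0.47 for Hk2, -0.29 for Pfkl, 0.49 for Tpi1, 0.07 for Gapdh, -0.23 for Pgk1, 0.10 for Eno1 and -0.05 for Ldha, all with an adjusted p of 0.999. The median of the 9 was -0.05, beside -0.03 over all genes.

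Whether the KI effect differed between the cell types was tested with the interaction term. edgeR called 0 of 9 genes, beside 0.066% of all genes, and DESeq2 called 0, beside 209 of the 15148 genes tested. At an unadjusted edgeR p below 0.05 there were 2 of 9, beside 8.49% of all genes. These 2 pointed in opposite directions. The KI effect in MemB exceeded that in B2 by 1.34 on the log2 scale for Pgk1 (95% interval 0.02 to 2.66, edgeR adjusted p = 0.583). For Slc2a1 it was lower, with a difference of -1.21 (interval -2.39 to -0.03, edgeR adjusted p = 0.575). The difference for Pgk1 was 0.79 without control B2 replicate 1, and that for Slc2a1 was -1.81 without KI MemB replicate 1. For Hk2 it ran from -0.23 (without control B2 replicate 2) to 2.86 (without control MemB replicate 1). The difference was 0.40 for Hk2, 0.24 for Pfkl, -0.26 for Tpi1, 0.40 for Ldha, 0.23 for Pkm, 0.02 for Eno1 and 0 for Gapdh (interval -0.86 to 0.87), at adjusted p of 0.881 to 1.

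MemB were set against B2 within each genotype. In control mice 0 of 9 genes were called by edgeR, beside 0.264% of all genes, and 0 by DESeq2, beside 398 of the 15148 genes tested. At an unadjusted edgeR p below 0.05 there were 3 of 9, beside 10.6%. These were Pkm (log2 fold change 0.85, SE 0.30, edgeR adjusted p = 0.323), Eno1 (0.55, SE 0.23, adjusted p = 0.422) and Gapdh (0.62, SE 0.30, adjusted p = 0.464), and the libraries of Pkm and Eno1 were separate, beside 6.32% of all genes with MemB higher. In KI mice edgeR called 0 of 9, beside 0.363% of all genes, and 4 of 9 had an unadjusted p below 0.05, beside 10.6%. They were Pgk1 (1.41, SE 0.46, edgeR adjusted p = 0.249), Pkm (1.07, SE 0.30, adjusted p = 0.131), Eno1 (0.58, SE 0.23, adjusted p = 0.387) and Gapdh (0.62, SE 0.30, adjusted p = 0.464). DESeq2 called 2 of these, Pgk1 (adjusted p = 0.0404) and Pkm (adjusted p = 0.0175), beside 2.88% of all genes to which it gave an adjusted p. The KI libraries of MemB and B2 were separate for all 4, beside 7.30% of all genes with MemB higher. Slc2a1 was at 0.62 in control mice (95% interval -0.21 to 1.45, which holds a doubling) and at -0.59 in KI mice (interval -1.42 to 0.25). Its KI value was -1.19 without KI MemB replicate 1 and its control value 0.35 without control MemB replicate 1. In control and KI mice Hk2 was at 0.97 and 1.38, Pfkl at -0.68 and -0.44, Tpi1 at 1.06 and 0.80 and Ldha at -0.08 and 0.32, and Pgk1 in control mice was at 0.08. In KI mice Hk2 was at 2.30 without KI B2 replicate 3 and Pfkl at -1.04 without KI MemB replicate 1. The control values turned to -1.51 for Hk2 without control MemB replicate 1 and to 0.07 for Pfkl without control B2 replicate 1. The 2 comparisons share no library.

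With both genotypes averaged, a contrast added after the values had been seen, Pkm was 1.95-fold higher in MemB than in B2. Its log2 fold change was 0.96 (SE 0.21, 95% interval 0.53 to 1.39, edgeR adjusted p = 0.0111), with all 6 MemB libraries above all 6 B2 libraries. It passed the adjusted p and fell just short of the limit on the fold, so that 0 of 9 were called by the full rule in edgeR and in DESeq2, beside 1.01% of all genes in edgeR and 4.09% in DESeq2. By adjusted p alone edgeR called 1 of 9, beside 1.36% of all genes, and DESeq2 called 2 of 9, Pkm (adjusted p = 4.49e-04) and Eno1 (adjusted p = 0.02), beside 4.76%. Without the 4 libraries numbered 3 the adjusted p of Pkm was 0.179, at a log2 fold change of 0.86. Eno1 was 1.48-fold higher (0.57, SE 0.16, edgeR adjusted p = 0.091) with the same full separation, which 0.799% of all genes showed in this direction. Gapdh (0.62, SE 0.21, adjusted p = 0.159), Tpi1 (0.93, SE 0.38, adjusted p = 0.267) and Pgk1 (0.74, SE 0.32, adjusted p = 0.309) had an unadjusted edgeR p below 0.05, as had 5 of the 9 in all, beside 12.9% of all genes. Ldha was at 0.12 (interval -0.29 to 0.53). The average of Slc2a1, 0.02 (interval -0.57 to 0.60), joined values of opposite sign in the 2 genotypes. Hk2 (1.17) and Pfkl (-0.56) had adjusted p of 0.593 and 0.631 in edgeR. Hk2 was at -0.08 without control MemB replicate 1, and Pfkl at -0.19 without control B2 replicate 1. Aldoa.1 was at 0.79 (SE 0.22), with an adjusted p of 0.069 in edgeR and 0.0392 in DESeq2. The median of the 9 was 0.62, beside 0.02 over all genes, and 8 of 9 were higher, beside 51.2%.

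**Figure D3:**
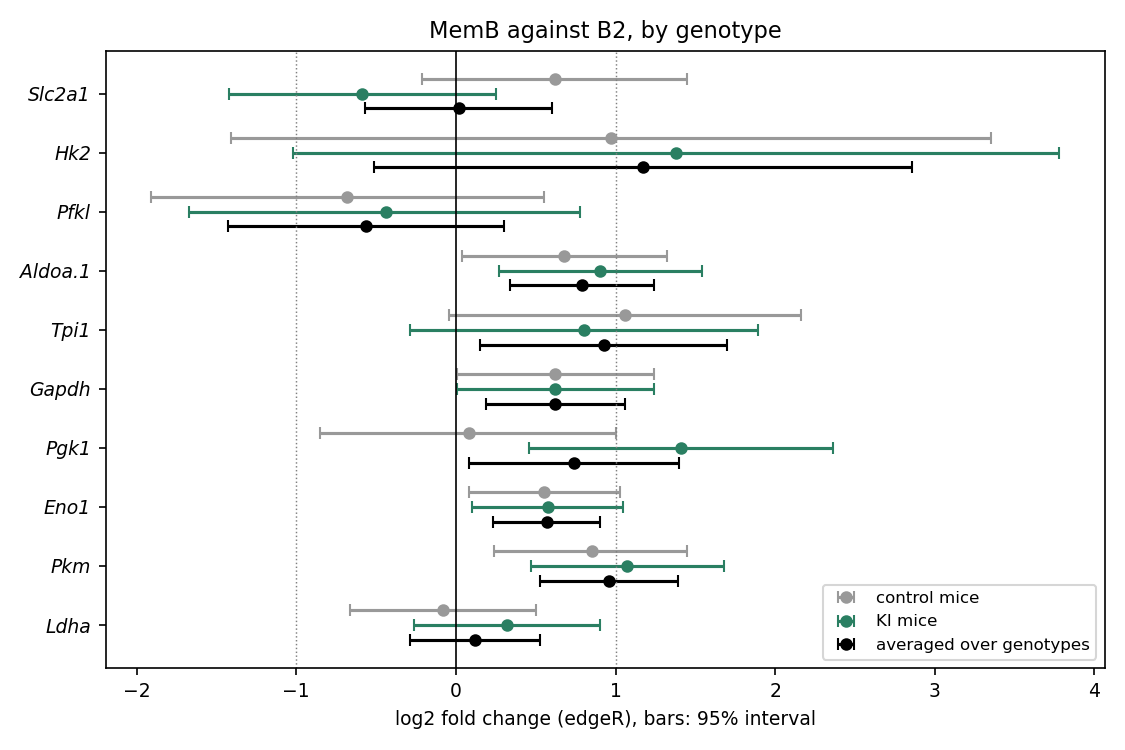
Log2 fold change of MemB against B2 (x axis) for each gene (y axis), in control mice, in KI mice and averaged over genotypes, from edgeR with 95% intervals as bars and dotted lines at a doubling and a halving. The intervals of Pkm, Eno1, Gapdh and Aldoa.1 lie above 0 in all 3, that of Pgk1 does so in KI mice and in the average, and Slc2a1 lies at 0.62 in control mice and -0.59 in KI mice.

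Summed over the 9 genes, the level was 673, 641 and 601 CPM in control B2, 664, 639 and 641 in KI B2, 1020, 869 and 757 in control MemB and 1080, 893 and 834 in KI MemB. All MemB libraries were above all B2 libraries, and KI and control overlapped within each cell type. A list of 32 cell cycle genes was summed in the same way. Their sum was 1620, 949 and 1290 CPM in KI MemB and 711, 774 and 746 in control MemB, without overlap, whereas in B2 it was 703, 571 and 996 in KI and 495, 588 and 789 in control, with overlap. Of these 32 genes, 0 were called in KI MemB by edgeR, beside 0.284% of all genes. At an unadjusted p below 0.05 there were 8, all of them higher, beside 11.1% of all genes in either direction. DESeq2 called 4: Cdk1, Cdc45, Aurka and Ccnb2 (3.49% of all genes, as above). Top2a, which untangles DNA in dividing cells, was at 217, 107 and 158 CPM in KI MemB and at 46.1, 73.8 and 71.2 in control MemB (log2 fold change 1.33, SE 0.41, edgeR adjusted p = 0.236). Cdk1, the mitotic kinase, was at 34.5, 13.2 and 11.8 CPM in KI MemB against 0.426, 3.4 and 0.779 (3.69, SE 1.24, adjusted p = 0.306), and Cdc45, a replication factor, had a value of 5.34 (SE 1.64, adjusted p = 0.236). The median over the 32 was 0.87 in MemB, with 27 higher in KI, and 0.34 in B2, with 25 higher, beside a median of -0.03 and 48.4% higher over all genes in each cell type. In the interaction edgeR called 0 of the 32, beside 0.066% of all genes, and DESeq2 called 0, beside 209 of the 15148 genes tested. At an unadjusted edgeR p below 0.05 there were 2, beside 8.49% of all genes. A difference of the KI effect between the cell types was thus not shown for this list. In B2 the smallest p were those of Cdc6 (3.38), Ccna2 (1.85) and Ccne2 (-2.34). For MemB against B2 they were Cdc45 (-3.29), Kif11 (1.03) and Tk1 (0.77) in control mice. In KI mice they were Top2a (1.6), Mki67 (1.29) and Mcm6 (1.07). There DESeq2 called 1 of the 32, Top2a, beside 2.88% of all genes, and edgeR none, beside 0.363%.

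**Figure D4:**
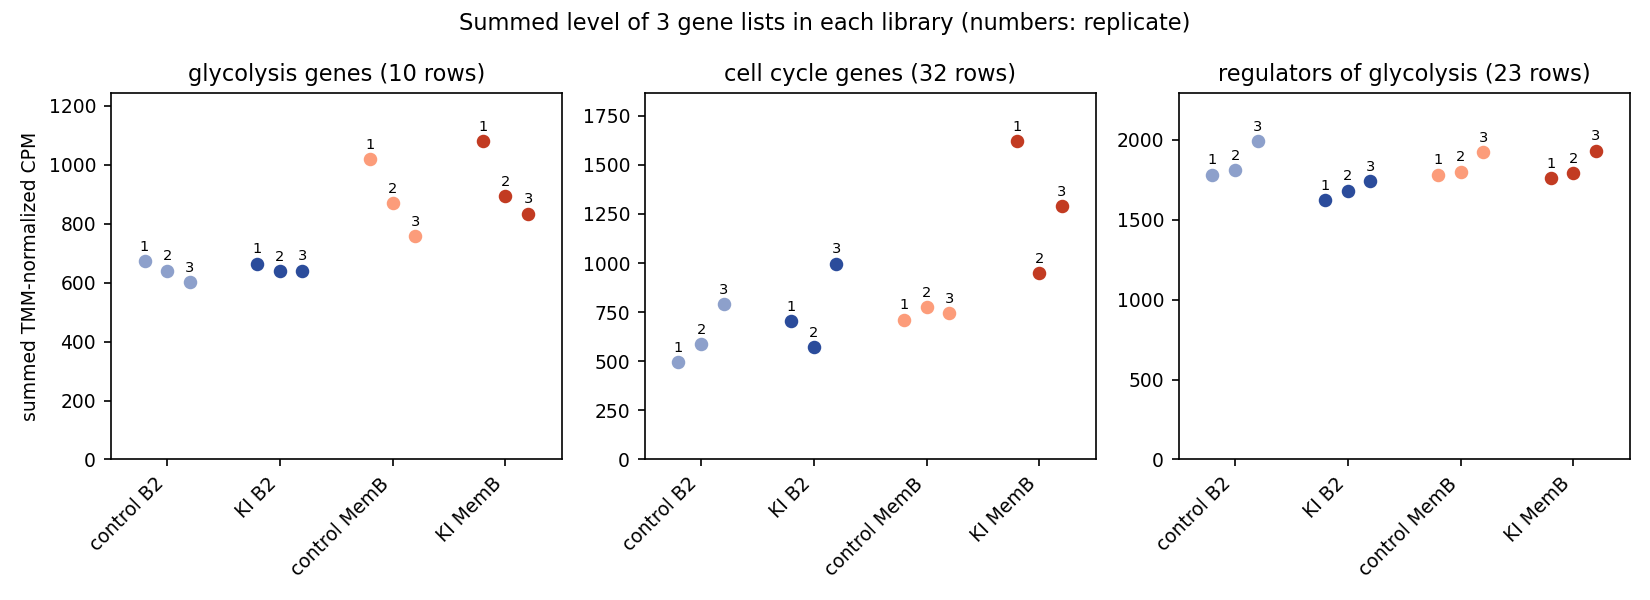
Summed TMM-normalized CPM (y axis, from 0) of the glycolysis genes (the row Aldoa adds 0), of the cell cycle genes and of the regulators of glycolysis in each library, by group (x axis), with replicate numbers beside the points. The glycolysis sum is higher in MemB than in B2 and overlaps between genotypes, and the cell cycle sum of KI MemB, 949 to 1620, lies above that of control MemB.

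Markers of other cells moved with some of these groups. The summed level of 17 T and NK cell markers was 142 to 314 CPM in control MemB, 45.2 to 63.2 in KI MemB, 47.4 to 98.3 in control B2 and 74.9 to 108 in KI B2. The 15 macrophage markers summed to 78.5 to 116 CPM in control MemB, 50.6 to 120 in KI MemB and 24.7 to 68.8 in B2, with 7 or 8 of them at the floor of 3 counts in each group. The 8 B-1 cell markers summed to 776 to 951 CPM in control MemB, 453 to 593 in KI MemB and 342 to 561 in B2. The 7 mast cell markers, at 0.838 to 77 CPM in B2 and 0.879 to 253 CPM in MemB, reached 253 CPM in control MemB replicate 3 and 77 CPM in KI B2 replicate 3. The 10 plasma cell markers summed to 541 to 710 CPM in control MemB, 502 to 690 in KI MemB and 320 to 498 in B2, so that all MemB libraries were above all B2 libraries, as for the glycolysis genes. Among them Jchain, the joining chain of secreted IgA and IgM, was at 152, 72.1 and 196 CPM in KI MemB and 6.71, 5.57 and 18 in control MemB (log2 fold change 3.80, SE 0.68, edgeR adjusted p = 0.00495). The plasma cell list was split in that comparison, with 5 positive log2 fold changes and 5 negative ones (median -0.24, beside -0.03 over all genes). Libraries did not overlap for Jchain and Derl3 (1.19), both higher, nor for Irf4 (-0.56) and Mzb1 (-0.66), both lower. Of the markers besides Jchain, edgeR also called Igha higher in KI MemB (2.47), and Nkg7 (-6.47), Cma1 (-6.40), Ighd (-1.35) and Ighm (-2.46) lower. In bulk samples fewer cells of a type and less RNA per cell cannot be told apart, and the part of these cells in the glycolysis values was not tested.

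Other genes of glucose transport and glycolysis were followed through a list of 24, of which 18 were tested. In KI MemB 0 were called by edgeR or DESeq2, beside 0.284% and 3.49% of all genes. Of the 18, 11 were higher, beside 48.4% of all genes, and 7 lower, with a median of 0.04 beside -0.03. The 3 with the smallest p were Aldoc, a second aldolase (log2 fold change 1.63, adjusted p = 0.452), Pfkfb3, which makes the activator of phosphofructokinase (1.04, adjusted p = 0.570), and Pgam2 (3.00, SE 1.87, adjusted p = 0.583). Pfkfb3 was at 25, 41.5 and 32.9 CPM in KI MemB and at 11.2, 19.5 and 17.5 in control MemB, without overlap. Such separation, with KI higher, was found in 6.01% of all genes. In KI B2 the corresponding genes were Slc2a8 (4.24, SE 2.32), Pfkfb1 (3.74, SE 2.1) and Gpi1 (-0.47, SE 0.31). Their adjusted p ran from 0.860 to 0.908 in edgeR, and Slc2a8 was at the floor of 3 counts in control B2. Between MemB and B2, Pgam1, the phosphoglycerate mutase between Pgk1 and Eno1 in the pathway, was at 92.1 to 154 CPM in MemB and at 60 to 85.6 CPM in B2, with all 6 libraries of each separate, as in 0.799% of all genes (0.67 averaged over genotypes, SE 0.23, edgeR adjusted p = 0.157). In control mice Pgam1 (0.74), Pfkfb1 (4.53, SE 2.18) and Pfkfb3 (-1.27) had the smallest p, and in KI mice Aldoc (2.51), Gpi1 (0.75) and Pgam2 (4.79, SE 2.04). edgeR called none of these, and DESeq2 called Aldoc in KI mice, where edgeR called 0.363% and DESeq2 2.88% of all genes.

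The fate of pyruvate and the pentose phosphate branch were followed in the same way. Of 11 tested genes of lactate and pyruvate handling, 0 were called in KI MemB by edgeR or DESeq2, beside 0.284% and 3.49% of all genes. At an unadjusted edgeR p below 0.05 there was 1, beside 11.1%. This was Pdk2, a kinase that restrains pyruvate dehydrogenase, at 0.136, 0.582 and 0.554 CPM in KI MemB and 2.13, 7.83 and 3.48 in control MemB (log2 fold change -3.39, SE 1.65, edgeR adjusted p = 0.450). Pdk3 (-0.97) and the lactate transporter gene Slc16a1 (-0.93) followed. The B-type lactate dehydrogenase gene Ldhb was listed at 0 in all libraries. In B2, Slc16a3 (2.08), Pdk1 (-0.65) and Dlat (-0.73) came first. Between MemB and B2 they were Pdk3 (1.74), Pdha1 (0.74) and Mpc2 (0.74) in control mice. In KI mice they were Pdk2 (-4.66), Pdk1 (1.27) and Slc16a1 (-1.45). There DESeq2 called Pdk2, beside 2.88% of all genes, and edgeR none, beside 0.363%. In the average over genotypes DESeq2 called 1 of the 11, Pdk3, higher in MemB, beside 4.09% of all genes called. For Pdk3 edgeR gave a log2 fold change of 1.59 (adjusted p = 0.196). All 7 pentose phosphate genes were tested and 0 were called in KI MemB by either tool, beside 0.284% of all genes in edgeR and 3.49% in DESeq2. Their values ran from -0.57 for G6pdx, the enzyme that opens the branch, to 0.50 for Rpia, with Pgd at 0.41. In B2, Tkt (0.68), Taldo1 (-0.21) and Rpe (-0.22) had the smallest p. Between MemB and B2 these were Tkt (0.52), Pgd (0.67) and Pgls (-0.21) in control mice and Pgd (1.3), Rpia (0.77) and G6pdx (-0.43) in KI mice.

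Among 19 tested regulators of glycolysis, edgeR called 0 in KI MemB, beside 0.284% of all genes. DESeq2 called 1, Akt1, beside 3.49% of all genes. At an unadjusted edgeR p below 0.05 there were 2, beside 11.1%. Akt1, a kinase that promotes glucose uptake, was at 88.5, 80.3 and 66.5 CPM in KI MemB and at 40.8, 27.7 and 35.1 in control MemB, without overlap (log2 fold change 1.18, SE 0.45, edgeR adjusted p = 0.346). Such separation, with KI higher, was found in 6.01% of all genes. Vhl, which targets HIF-1 for destruction, had a value of -2.21 (SE 1.02, adjusted p = 0.417), and Pik3cd one of -0.42. Hif1a was at 120, 128 and 160 CPM in KI MemB and at 55.4, 130 and 117 in control MemB. Myc was at 112 to 145 CPM and 118 to 183 CPM in the same groups. In B2, Pik3cd (-0.74), Mtor (1.00) and Pou2f2 (-0.43) had the smallest p. Bcl6, a repressor of glycolytic genes and the factor of germinal centre B cells, was lower in MemB than in B2 when the genotypes were averaged (-1.82, SE 0.47, edgeR adjusted p = 0.046). It was at 2.47 to 38.3 CPM in MemB and 31.5 to 120 CPM in B2, with overlap. In the average edgeR called 1.01% of all genes. In control mice Bcl6 (-2.01), Rheb (0.72) and Vhl (1.11) came first, and in KI mice Akt1 (1.42), Mtor (-1.30) and Hif1a (0.84). edgeR called none of these, and DESeq2 called Akt1 in KI mice, where edgeR called 0.363% and DESeq2 2.88% of all genes.

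Of other targets of the hypoxia response 10 were tested. In KI MemB 4 of them were higher, beside 48.4% of all genes, and 6 lower, with a median of -0.38 beside -0.03. Of the 10, 0 were called in KI MemB by edgeR or DESeq2, beside 0.284% and 3.49% of all genes. At an unadjusted edgeR p below 0.05 there were 2, beside 11.1%. Ddit4, an inhibitor of mTORC1, was at 90.8, 96.8 and 130 CPM in KI MemB and at 17.7, 65.4 and 52.1 in control MemB (1.23, SE 0.41, edgeR adjusted p = 0.295). Kdm3a, a histone demethylase, was at 62.8, 40.4 and 30.8 CPM against 98.2, 64 and 128 (-1.12, SE 0.38, adjusted p = 0.311). The groups of both were separate, in opposite directions. Of all genes, 6.01% were separate with KI higher and 921 of 15148 with KI lower. Ankrd37 followed with -0.93. In B2, Ddit4 was again higher in every KI library (0.92, SE 0.40, edgeR adjusted p = 0.838), with Mxi1 (1.21) and Ero1a (-0.79) next. Such separation in B2, with KI higher, was found in 5.21% of all genes. Between MemB and B2 the genes with the smallest p were Ankrd37 (0.61), Ndrg1 (1.43) and Higd1a (-0.67) in control mice and Ero1a (1.20), Mxi1 (-1.44) and Kdm3a (-0.74) in KI mice.

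**Figure D5:**
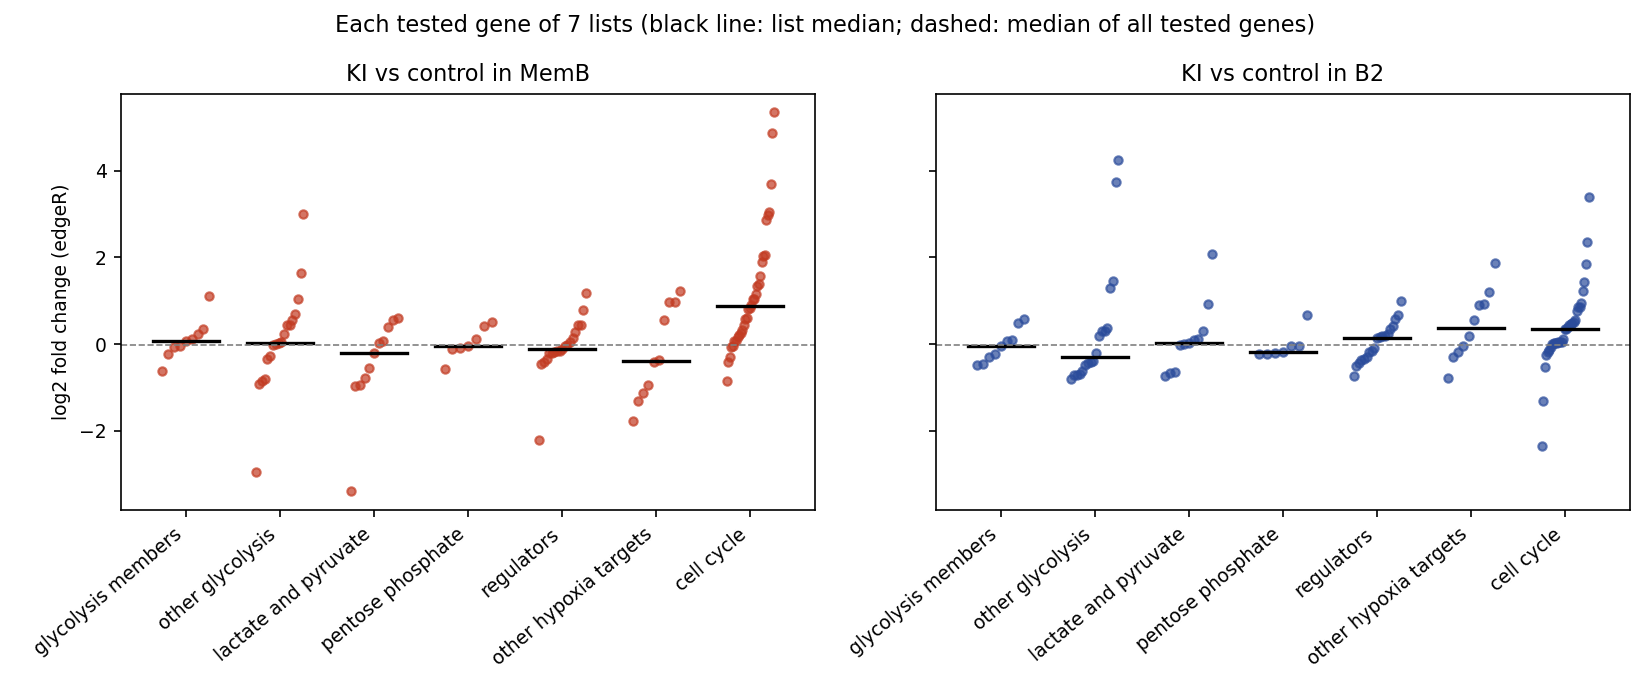
Log2 fold change of KI against control (y axis) for every tested gene of 7 lists (x axis) in MemB and in B2, with the list median as a black line and the median of all tested genes, -0.03, dashed. In MemB the glycolysis genes centre on 0.07 and the cell cycle genes on 0.87.

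Copies of these genes can share reads. Eno1b, a near-identical copy of Eno1, took 1.21% to 6.28% of their summed counts, Gapdhrt took 1.10% to 4.02% of its sum with Gapdh, and Pgk1.rs7 at most 2.80% of its sum with Pgk1. Adding such copies to their genes changed no call. In GENCODE M39 on GRCm39, Pgk1 lies at chrX:105230706-105247305 on the plus strand and overlaps no other gene, nor does Eno1 at chr4:150321073-150337027. Pkm, at chr9:59563364-59586663 on the plus strand, overlaps 6 other annotated genes, most of them antisense, and Slc2a1, at chr4:118965908-118996365, overlaps 3. Whether counting used strand is not given in the sources used here.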

How the data were processed

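RNAseq of 12 libraries was analysed. RNA was amplified before sequencing. Per the submitters' processing notes and the study's methods, the authors used cutadapt 4.5 for trimming, STAR 2.7.11a for alignment to mm39 and RSEM 1.3.3, whose expected counts per gene they deposited without normalization. RSEM divides reads among similar genes, and the annotation release and strand setting are not given in the sources used here. Each column was matched to a library by its name, and 0 columns were left over. Expected counts were rounded, since 32.2% of those above 0 were fractional. Depth was 29895068 to 39732124 counts. No molecular tags are described in those sources, so depth covers counting error only.

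A single model of 4 group means was fitted to all libraries with edgeR 4.0.16 (R 4.3.3), using TMM factors, its filter on low counts (minimum count 10) and the robust form of the quasi-likelihood test. Benjamini-Hochberg adjustment covered 15148 genes. The SE is the log2 fold change divided by the square root of F, and 95% intervals use it with the t quantile of the fit. Likeness used log2(CPM + 1). DESeq2 1.42.0 was an alternative, as were other filters and normalizations, replicate blocks and each library left out in turn. Code was tested on simulated data. The glycolysis genes that passed the filter (9 of 10) were named in each comparison. Of the 6 lists of other pathway genes and the cell cycle the called genes were named or, with none called, the 3 with the smallest p in each comparison of 2 groups. Hif1a in MemB, Myc, Ldhb, Pgam1 across genotypes and the marker genes besides Ighd and Ighm were named after their values were seen. The members and lists were chosen with earlier results of these data known. P-values measure the spread between these libraries.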

Additional observations from a re-analysis of the deposited data

Results flagged for a closer look

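The row Aldoa.1, which is not one of the 10 named rows, held at least 2069 counts in every library while the row Aldoa held 0 in all 12. It was singled out because it carries signal outside the rows chosen. Among the listed genes it was the 1 symbol with such a repeated row. GENCODE M39 places Aldoa at chr7:126393822-126399923 on the minus strand of GRCm39, where Gm57854 and Tlcd3b overlap it. The source of the second row was not tested.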

How the results depend on the processing

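Counts of glycolysis genes called stayed at 0 in the 5 comparisons fixed for this work under each alternative run on them but DESeq2, which called 2 of 9 in MemB against B2 of KI mice, Pgk1 (1.41) and Pkm (1.08). The fit to only the 6 libraries compared was not made for the interaction, and the block by mouse was fitted only for MemB against B2. In the average over genotypes, added after seeing the data, 1 gene was called with no limit on the fold, and leaving out a library gave 0 to 1 called by the full rule. That gene was Pkm, which passed the fold limit in 4 of 12 cases (log2 fold change 0.89 to 1.04). The number of all genes called depended most on the tool. For KI against control in MemB it was 43 with edgeR, 479 with DESeq2, 90 with no filter, 17 with only the 6 libraries compared, 24 without the 4 libraries numbered 3 (also chosen after seeing the data) and 10 (without KI MemB replicate 1) to 45 without 1 library. In B2 it was 1, and 42 with DESeq2, 8 with no filter and 2 without the libraries numbered 3. For the interaction, 10 became 209 with DESeq2, 44 with no filter and 3 without ribosomal RNA and immunoglobulin genes. For MemB against B2, 40 in control mice became 398 with DESeq2, 96 with no filter and 18 without the libraries numbered 3. The 55 in KI mice became 396, 105 and 30, and the 153 of the average 583, 236 and 87. With 1 library left out, the lowest counts were 5 for the interaction (without control B2 replicate 2), 19 in control mice (without control B2 replicate 1), 25 in KI mice (without KI MemB replicate 1) and 98 in the average (without KI B2 replicate 2). The cause was not tested.

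Correlations across genes of the deviations of same-numbered libraries were -0.004 to 0.028, so the replicate numbers were not taken as pairs. In 19 of 24 comparisons a library was nonetheless most like that of its own number, a hint from the data and not the design. By Xist, the libraries numbered 3 shared the other sex in all 4 groups, and the main model had no term for sex. With the replicate block, 37 genes were called for KI against control in MemB, 1 in B2, 6 in the interaction, 41 and 57 for MemB against B2 in control and KI mice and 128 in the average, and 0 of the 9 glycolysis genes. The block turned Hk2 in KI MemB to 0.40, Pfkl in the interaction to -0.09 and Slc2a1 in the average to -0.08 (-0.09 with a block by mouse).

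Several values changed sign. Without the libraries numbered 3, KI against control became 0.16 (Pfkl) and -0.02 (Aldoa.1) in MemB and -0.19 (Tpi1) and -0.14 (Aldoa.1) in B2, the interaction 0.26 (Tpi1) and -0.22 (Gapdh), and MemB against B2 in control mice 0.03 (Ldha). The interaction of Gapdh was -0.01 with no filter and with a minimum count of 50. With 1 library left out, KI against control in MemB ranged from -0.63 to 2.42 for Hk2, -0.65 to 0.21 for Pfkl, -0.15 to 0.50 for Tpi1 and -0.16 to 0.21 for Gapdh. In B2 it ranged from -1.39 to 0.17 for Hk2, -0.69 to 0.47 for Pfkl, -0.06 to 0.30 for Gapdh, -0.55 to 0.33 for Pgk1, -0.18 to 0.05 for Ldha and -0.22 to 0.31 for Aldoa.1. The interaction ranged from -0.23 to 2.86 for Hk2, -0.51 to 0.64 for Pfkl, -0.64 to 0.13 for Tpi1, -0.23 to 0.14 for Gapdh, -0.08 to 0.12 for Eno1 and -0.06 to 0.49 for Aldoa.1. MemB against B2 in control mice ranged from -1.51 to 1.61 for Hk2, -1.08 to 0.07 for Pfkl, -0.25 to 0.62 for Pgk1 and -0.36 to 0.08 for Ldha, and the average from -0.29 to 0.17 for Slc2a1, -0.08 to 1.64 for Hk2 and -0.03 to 0.20 for Ldha. For KI against control in MemB the SE ran from 0.23 (Eno1) to 1.14 (Hk2), and the lowest count behind a value of these genes was 24 (Hk2).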
